A study of Drosophila melanogaster with 48 samples.

Results

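The 40 genes described here are the translation factors of the fly, taken as every gene in the table whose symbol starts with eIF, eEF, Ef1, EF2 or eRF, together with Elf, the fly gene for release factor eRF3. The table held 16995 genes, and the rule used the symbols only, with no measured value. The 40 genes were read in 48 libraries of 3′ mRNA tags from fly brains, in 16 groups of 3 libraries: Tau-KO and w1118, female and male, dissected 1, 2 and 4 hr after injury or as controls. All 48 libraries, the controls included, were labelled as exposed to near-infrared light (NIR). By their labels, injured and control libraries therefore differed by injury and not by exposure. The methods give adult mated flies 10 to 14 days old, 1 blow in a high-impact trauma device, in which a spring throws the vial that holds the flies onto a pad, 2 hr of light on the dissected brains and then RNA from 1 brain for each library. RNA was therefore collected 2 hr after the dissection times of 1, 2 and 4 hr. The stock source and the RNA extraction are stated by name for w1118. For Tau-KO, by its label a knockout of the microtubule protein tau, the allele is not given in the sources used here. The comparisons ask whether RNA of the translation machinery changed after injury, and whether the change differed by sex or by strain.

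Translation starts when eIF2 carries the initiator tRNA to the small ribosomal subunit, which eIF1A and the large eIF3 complex help to load, and when eIF4F, made of the cap-binding protein eIF4E, the scaffold eIF4G and the helicase eIF4A, brings the subunit to the 5′ cap of an mRNA. After the start codon is found, eIF5 and eIF5B release the factors and join the large subunit. eEF1A then delivers each aminoacyl-tRNA, eEF2 moves the ribosome on by a codon, and eRF1 with eRF3 ends the chain at a stop codon. Neurons use the same machinery as other cells, and phosphorylation of eIF2 and binding of eIF4E by its inhibitors are known points at which stress lowers translation. These controls act on proteins, so RNA levels do not read them.

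Counts in genes ranged from 39517 to 1668925 for a library, with a median of 582952, and 2 libraries were under 100000, a control library labelled Tau-KO male (replicate 1, 39517) and a w1118 male library of 1 hr (replicate 3, 59781). In 16 libraries the nearest other library differed by more than 4 times the sampling noise, so these stood apart, while in the 30 others of at least 100000 counts that figure was 1.37 to 2.30. The labels of sex and strain could not be read back from the 30 others. The RNA roX1, part of the complex that raises X-linked transcription in males, had 855 to 1078 CPM (counts per 1000000 counts in genes) in the 16 of them labelled female, against 864 to 1275 CPM in the 14 labelled male. The yolk protein gene Yp1 had 1794 to 2491 CPM in those labelled female, against 1456 to 2339 CPM in those labelled male. tau had 104 to 196 CPM in the 15 labelled Tau-KO, against 129 to 212 CPM in the 15 labelled w1118, and whether the deletion takes the 3′ end that these tags come from is not given in the sources used here. Over all 48 libraries the ranges were wider and overlapped too. roX1 had 47.2 to 1330 CPM in those labelled female, against 794 to 1760 CPM in those labelled male. Yp1 had 448 to 11953 CPM, against 265 to 2339 CPM. The lowest roX1 and the highest Yp1 were in libraries labelled female that stood apart. tau had 90.9 to 256 CPM in Tau-KO, against 54.9 to 212 CPM in w1118. Groups are therefore named by their labels throughout, and every direction between sexes or strains is a direction between labels. The labels of injury and time were not checked in this way. All 7 neuron markers and all 6 glia markers were detected, with summed levels of 2136 to 4586 and 1130 to 2485 CPM. Photoreceptor genes (2253 to 31274 CPM), muscle genes (180 to 4270 CPM), fat body genes (677 to 18165 CPM) and gut genes (11 to 5097 CPM, median 368) were present as well, with the highest gut sum in the w1118 female control replicate 1, and their part in the results was not tested. In bulk brains, fewer cells of a type and less RNA in each cell cannot be told apart.

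Together the 40 genes held a median of 6590 CPM of a library, with the lowest sum of 4533 CPM in the w1118 male library of 4 hr replicate 1 and the highest of 7389 CPM in the Tau-KO male control replicate 1. A 3′ tag library counts about 1 tag for each transcript whatever its length, so CPM was compared between genes without dividing by length, although priming and mapping can differ between genes. Elongation factors took 58.5% of the members' counts at the median over libraries, the eIF3 and eIF1A group 19.9%, cap binding and unwinding 9.66%, eIF2 with its exchange factor 8.55%, subunit joining and related factors 3.0% and release factors 0.820%. Of the 40 genes, 22 were detected in all 48 libraries and 4 in none.

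**Figure D1:**
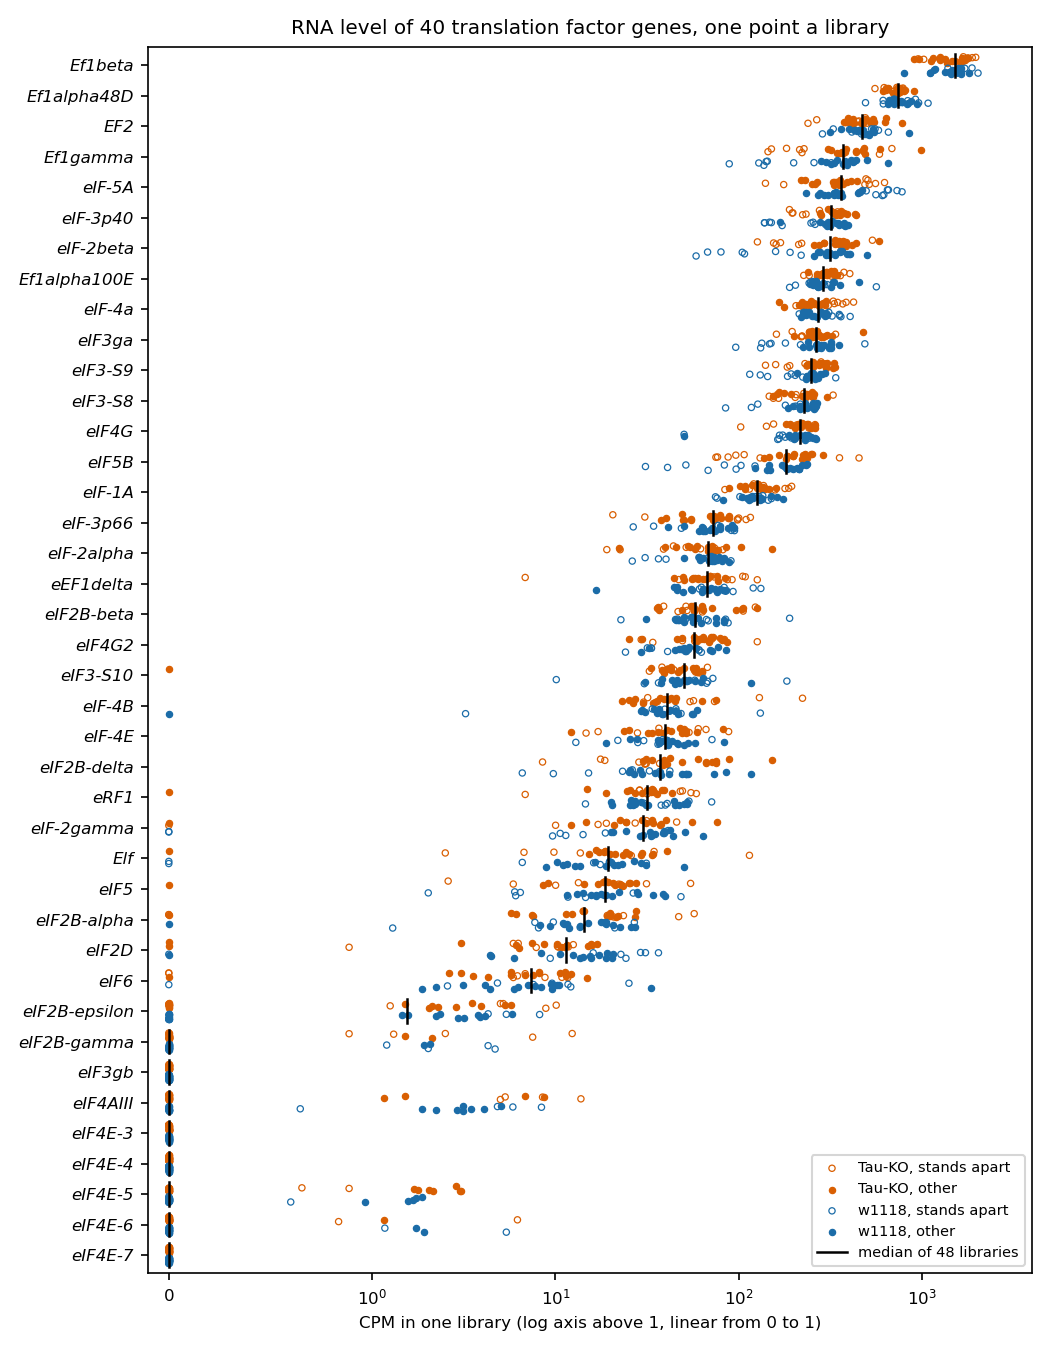
RNA level of each of the 40 translation factor genes, with 1 point for each of 48 libraries (Tau-KO above w1118 in each row, open points for libraries that stand apart), and CPM on an axis that is logarithmic above 1 and linear from 0 to 1. Black bars are medians over the 48 libraries, which run from 1517 CPM for Ef1beta to 0 for the genes at the bottom, and the open points lie at the ends of most rows.

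Elongation factors were the most abundant members. Ef1beta, which recharges eEF1A with GTP, had the highest median of all, 1517 CPM (803 to 2029 over 48 libraries). Of the paralogs of eEF1A itself, Ef1alpha48D had a median of 738 CPM (493 to 1083) and Ef1alpha100E one of 288 CPM (190 to 565). In each of the 46 libraries of at least 100000 counts Ef1alpha48D was higher, at 2.46 times the count of Ef1alpha100E at the median and 1.48 to 5.06 times at the ends. EF2, the translocase, had a median of 475 CPM (239 to 853), and Ef1gamma, the scaffold of the exchange complex, 371 CPM (88.9 to 987). The count of Ef1beta over Ef1gamma, which sit in one complex, ran from 1.49 to 15.7 with a median of 4.40. eIF-5A, named an initiation factor and now called eEF5, helps the ribosome to form difficult peptide bonds and had a median of 362 CPM (140.2 to 781). eEF1delta, a further exchange subunit, was lower at 67.2 CPM (6.84 to 132).

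Among the initiation factors, members of the same complex differed widely in tag counts. In eIF2, the median was 315 CPM for eIF-2beta, 68.0 CPM for eIF-2alpha, the subunit phosphorylated under stress, and 30.0 CPM for eIF-2gamma, which binds the tRNA. eIF-2beta was higher than eIF-2alpha in all 46 libraries of at least 100000 counts, by 4.98 times at the median. eIF-2gamma overlaps Su(var)3-9 on the same strand in the BDGP6 annotation, so its tags may be split or discarded in counting and its level is uncertain. Of the 5 subunits of eIF2B, which reloads eIF2 with GTP, eIF2B-beta had 57.6 CPM and eIF2B-delta 37.2 CPM at the median, eIF2B-alpha 14.3 CPM and eIF2B-epsilon 1.54 CPM, and eIF2B-gamma had 42 counts in all 48 libraries together. eIF5, which triggers GTP hydrolysis by eIF2, had 18.6 CPM.

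In eIF3, the subunit genes lay between 50.3 and 319 CPM at the median: eIF-3p40 (subunit h) at 319, eIF3ga (g) at 266, eIF3-S9 (b) at 250.0, eIF3-S8 (c) at 228, eIF-3p66 (d) at 72.1 and eIF3-S10 (a) at 50.3 CPM. eIF-1A, which helps the small subunit scan, had 126 CPM. In eIF4F, the helicase eIF-4a had 272 CPM, the scaffold eIF4G 216 CPM and the cap-binding protein eIF-4E 39.6 CPM, and the count of eIF4G was 5.61 times that of eIF-4E at the median (1.55 to 17.8 in 46 libraries). eIF4G2, a paralog of eIF4G known from the male germline of flies, had 57.3 CPM, and eIF-4B, which aids the helicase, 40.5 CPM. Among the members, the paralogs of the cap-binding protein were near or at 0. eIF4E-5 had 15 counts and eIF4E-6 22 counts in 48 libraries. eIF4E-3, eIF4E-4, eIF4E-7 and eIF3gb, a paralog of eIF3ga, had none among 30783888 counts. That allows up to 0.0975 CPM for each over all libraries together, for counting error only. eIF4AIII, a helicase of the exon junction complex, had 87 counts. eIF5B, which joins the large subunit, had 182 CPM, eIF6, which keeps the subunits apart, 7.31 CPM and eIF2D, a factor that can deliver tRNA without eIF2, 11.4 CPM.

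The release factors were low. eRF1, which reads the stop codon, had a median of 31.8 CPM (0 to 71.3) or 19 counts, and Elf, the GTPase that works with it, 19.3 CPM (0 to 114.6) or 11 counts. At such counts a single library fixes Elf only within broad counting error. In the BDGP6 annotation eRF1 lies on chromosome arm 3L from 20348355 to 20353873 on the plus strand, where CG5618 overlaps it on the same strand, and Elf, there named eRF3, lies on arm 2L from 12434452 to 12441279 on the plus strand, where SC35 overlaps it on the opposite strand. Counting by the authors used the older build dm3, and whether it used strand is not stated, so tags in these overlaps cannot be told apart.

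Most of the members' extreme values lay in the libraries that stood apart, whatever their group. Of the 25 members detected in every library of at least 100000 counts, 43 of the 50 highest and lowest CPM values were in the 16 libraries that stood apart and 7 were in the 30 others. The 16 were chosen for counts unlike those of any other library, so this share (86.0%) follows in part from the choice, and over 3282 genes it was 81.0%. Ef1gamma had 88.9 to 687 CPM in the 16, against 280.2 to 593 CPM in the 30. eIF5B had 31.0 to 455 CPM in the 16, against 124 to 289 CPM in the 30. eIF-2beta had 58.6 to 538 CPM in the 16, against 257 to 435 CPM in the 30. eIF-5A had 140.2 to 781 CPM in the 16, against 220.0 to 475 CPM in the 30. The 30 others came from 15 of the 16 groups, and the spread of 29 members over them, taken as chi-square for each degree of freedom with sampling noise at 1, had a median of 1.94, against 8.89 over all 46. The same medians over 4413 genes were 1.76 and 6.57, and a lower spread in the 30 likewise follows in part from how they were chosen. eIF3-S10 was at 0.834 over the 30 and at 12.2 over all 46. eEF1delta was at 1.06 and 5.03 and eIF-1A at 1.34 and 3.95. Ef1beta kept the highest value over the 30, 13.4.

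Members also scaled with sequencing depth to different degrees. A gene that keeps its share of a library has a slope of 1 when its log2 count is set against the log2 library total. Over the 46 libraries the slope was 0.997 ± 0.041 (SE) for Ef1alpha48D and 1.01 ± 0.052 for Ef1alpha100E. It was 1.5 ± 0.071 for eIF-5A, 1.30 ± 0.10 for eEF1delta and 1.24 ± 0.041 for Ef1beta, so these took a larger share of deeper libraries. It was 0.295 ± 0.11 for eIF5B, 0.319 ± 0.21 for Elf, 0.357 ± 0.092 for Ef1gamma, 0.358 ± 0.12 for eIF2B-delta and 0.378 ± 0.11 for eIF-2beta. The median was 0.887 over 29 members and 0.824 over 4413 genes, and 5 members (17.2%) were under 0.5, against 21.8% of all genes. Over the 30 libraries that did not stand apart, Ef1beta (1.35 ± 0.029) and eIF-5A (1.31 ± 0.064) stayed above 1, while eIF5B (0.735 ± 0.074), Ef1gamma (0.670 ± 0.050), eIF-2beta (0.754 ± 0.048) and Elf (0.628 ± 0.15) stayed below 1 but were nearer to it. eIF2B-delta stayed at 0.361 ± 0.12. Members that moved away from 1 included eIF-4E (0.867 to 0.511), EF2 (0.887 to 0.711) and eIF-2gamma (0.888 to 1.45). The median over the 30 was 0.968 for the 29 members and 0.922 for the 4413 genes. The libraries that stood apart had 292534 to 1668925 counts and the 30 others 134970 to 1038474.

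**Figure D2:**
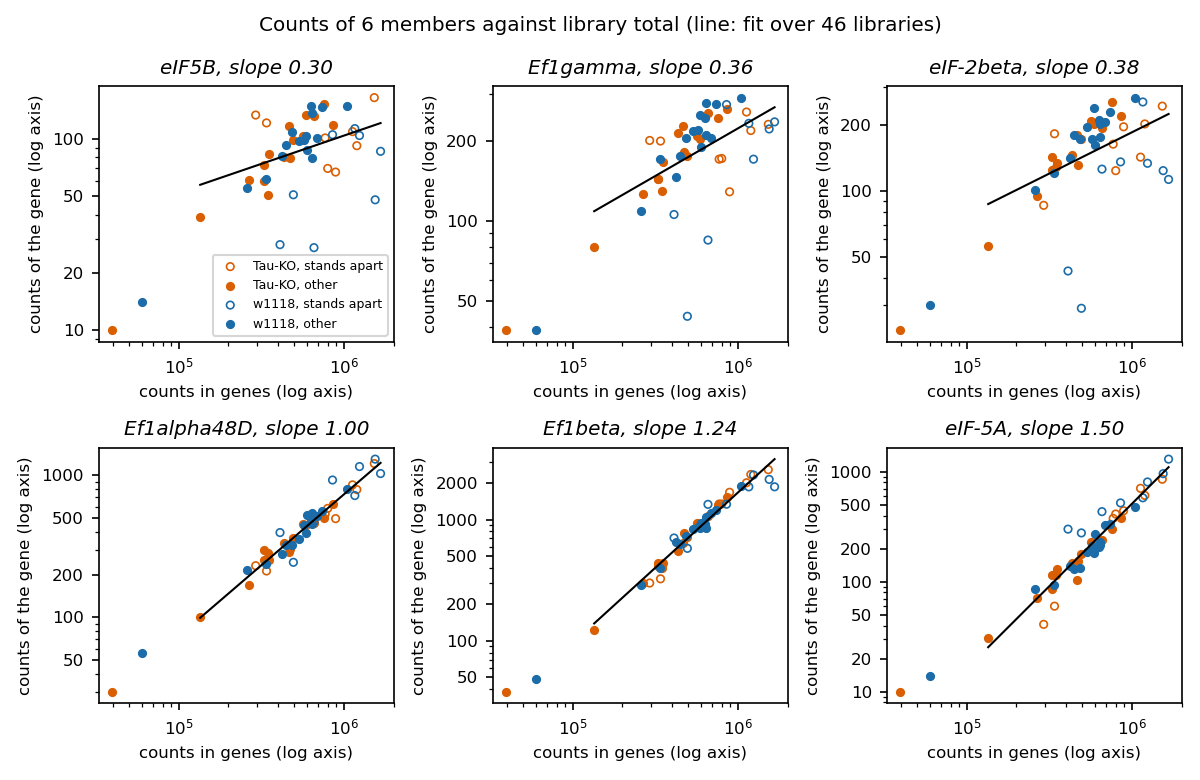
Counts of 6 members against the counts in genes of each library, both on log axes, for 48 libraries (filled points, others; open points, libraries that stand apart). Lines are fits over the 46 libraries of at least 100000 counts, with slopes of 0.295 for eIF5B, 0.357 for Ef1gamma, 0.378 for eIF-2beta, 0.997 for Ef1alpha48D, 1.24 for Ef1beta and 1.5 for eIF-5A, and in the top row the open points lie mostly below the filled ones.

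After injury no translation factor passed the test in any of the 12 comparisons of a time point with its control. The test was the quasi-likelihood test of edgeR on the counts, with p-values adjusted by Benjamini-Hochberg over all genes tested, and 29 members were tested in Tau-KO and 30 in w1118. At an unadjusted p under 0.05 there were 22 of 354 member results (6.21%), against 3214 of 62952 results over all genes (5.11%). The members' median log2 fold change in a comparison ran from -0.12 in Tau-KO males at 4 hr to 0.12 in w1118 females at 2 hr. The injured and control libraries did not overlap in 28 of the 354 member results (7.91%), against 8.37% of results over all genes. At an adjusted p under 0.05, 0% of all genes were called in each of the 12 comparisons. Members were ranked by their largest absolute log2 fold change over the 12 comparisons. Ef1alpha48D had the smallest, with log2 fold changes of -0.12 to 0.35, followed by eIF-1A (-0.36 to 0.11), Ef1alpha100E (-0.35 to 0.44) and eIF-2alpha (-0.45 to 0.28). Elf had the largest, with -0.10 to 3.53. The median SE was 0.22 for Ef1alpha48D and 0.83 for Elf, and the ranking does not allow for it.

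**Figure D3:**
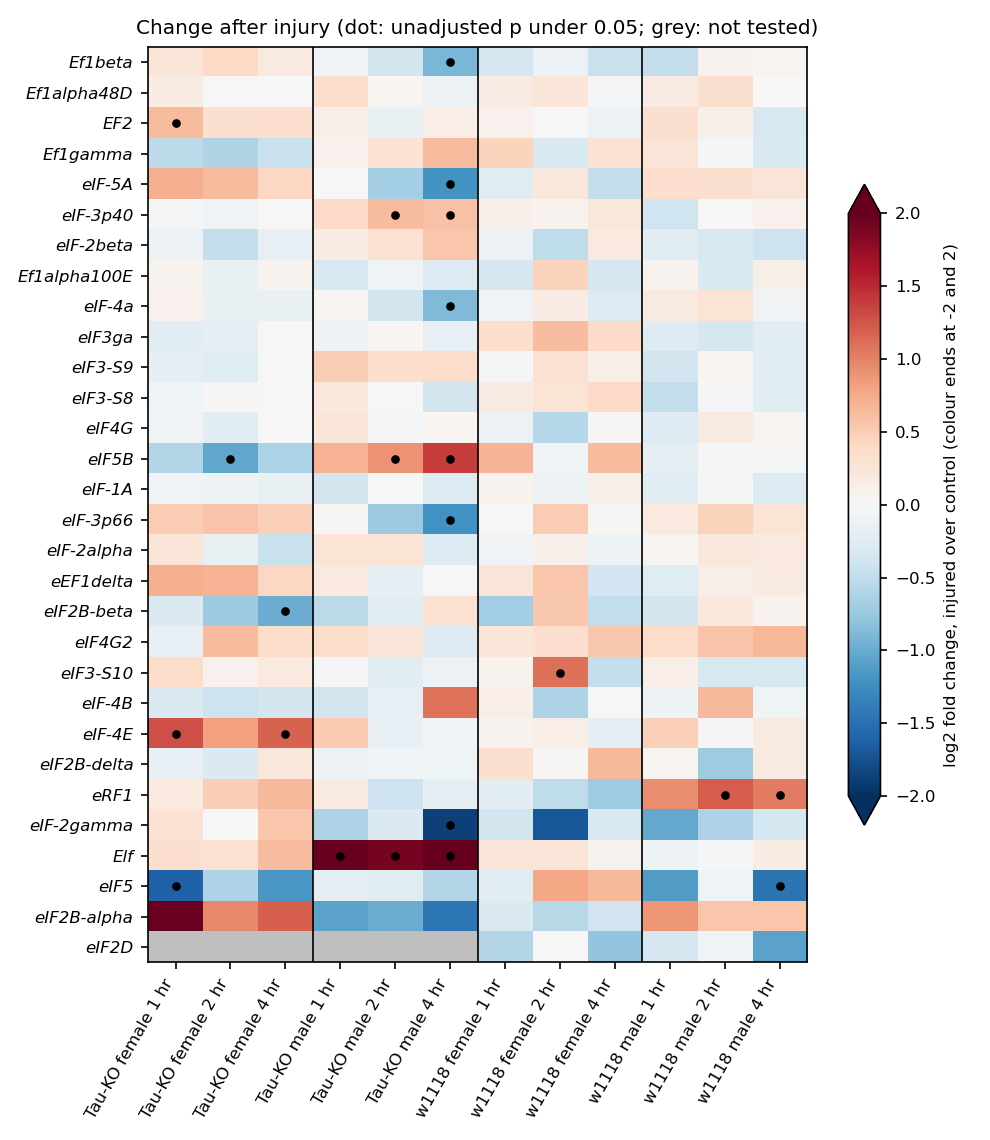
Log2 fold change of 30 members, injured over control, in the 12 comparisons of a time point with the control of the same label of strain and sex, with colour from -2 to 2. Dots mark the 22 results at an unadjusted p under 0.05, of which 12 are in Tau-KO males, and none of the 354 results passed at an adjusted p under 0.05.

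Tau-KO males held most of the larger values. Of 29 members, 8 had an unadjusted p under 0.05 at 4 hr, near the share of 23.3% of all 5015 genes tested. At 1 hr 1 member had one (3.97% of all genes), at 2 hr 3 did (6.94%) and for the average of the 3 times 3 did (14.4%, with 0.0598% of all genes and 0 members at an adjusted p under 0.05). Elf had 29.6, 114.6 and 33.9 CPM at 4 hr (4, 39 and 9 counts), against 0, 6.73 and 2.5 CPM in the controls (0, 6 and 3 counts). It had 15.2, 34.6 and 21.2 CPM at 1 hr and 17.2, 16.6 and 23.5 CPM at 2 hr. Every injured library was above every control library, and the library of 114.6 CPM at 4 hr stood apart. The log2 fold change of Elf was 2.43 ± 0.71 (SE) after 1 hr (adjusted p = 1.0), 1.92 ± 0.72 after 2 hr (adjusted p = 0.686) and 3.53 ± 0.72 after 4 hr (adjusted p = 0.0715). The value of 4 hr came to 2.60 to 4.32 when single libraries were left out, and its adjusted p was 0.0034 without the filter on low counts and 0.0055 with DESeq2. Its level in the Tau-KO male controls was also below that in the other controls, with 24.2, 13.7 and 18.3 CPM in Tau-KO females, 19.7, 10.9 and 20.8 CPM in w1118 females and 10.2, 19.7 and 13.6 CPM in w1118 males. The control library with 0 is the one with 39517 counts, and the other control libraries both stood apart, so no Tau-KO male control was free of one or the other. Without them a single control library with no Elf count is left, and no fold can be given.

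eIF5B, the joining factor, had 289, 356 and 229.6 CPM in Tau-KO males at 4 hr, against 253, 75.2 and 76.8 CPM in the controls, so the groups overlapped. Its log2 fold change was 1.38 ± 0.41 at 4 hr (adjusted p = 0.0910) and 0.90 ± 0.40 at 2 hr (adjusted p = 0.686). eIF5B lies on 3L from 3428658 to 3460977 on the minus strand (BDGP6) and overlaps no other gene. eIF-3p40 of eIF3 had 430, 347 and 391 CPM at 4 hr and 371, 340.1 and 436 CPM at 2 hr, against 278, 233 and 196 CPM in the controls. It did not overlap the controls at either time, with log2 fold changes of 0.59 ± 0.24 (adjusted p = 0.147) and 0.64 ± 0.23 (adjusted p = 0.686). Its control of 278 CPM was the library of 39517 counts, and the controls of 233 and 196 CPM stood apart.

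**Figure D4:**
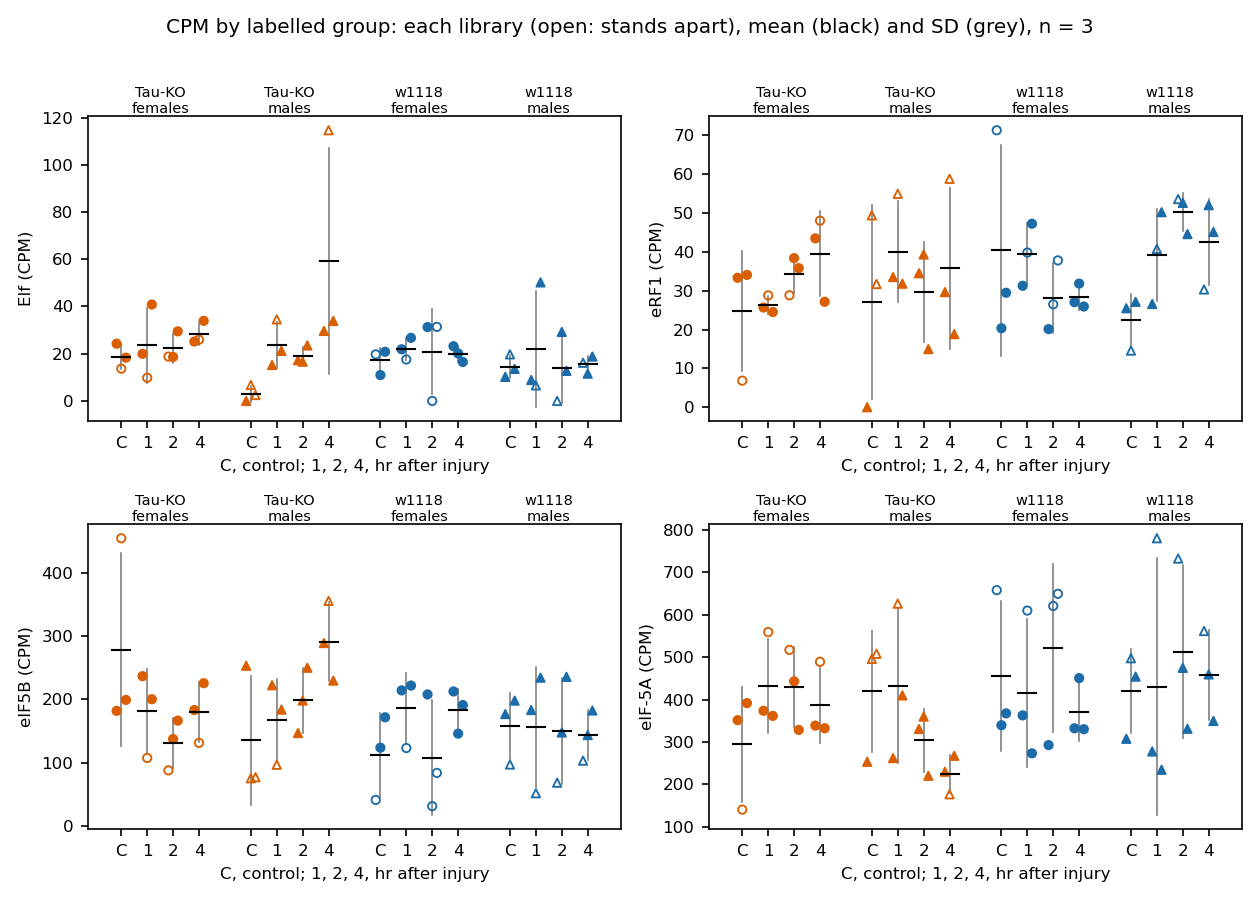
CPM of Elf, eRF1, eIF5B and eIF-5A in each library by labelled group (Tau-KO left of w1118, females left of males, then control, 1, 2 and 4 hr), with the mean in black and the SD in grey, n = 3 libraries. Open points are libraries that stand apart, and they include Tau-KO male controls 2 and 3, with 75.2 and 76.8 CPM of eIF5B.

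The members with a negative log2 fold change at 4 hr in Tau-KO males and an unadjusted p under 0.05 were eIF-5A, Ef1beta, eIF-4a, eIF-3p66 and eIF-2gamma. eIF-5A had 229.7, 176 and 267 CPM, against 253, 496 and 508 CPM in the controls (log2 fold change -1.19 ± 0.42, adjusted p = 0.118). Ef1beta had 911, 955 and 1125 CPM, against 962, 1888 and 1972 CPM (log2 fold change -0.92 ± 0.30, adjusted p = 0.104). In both, the control of 39517 counts lay within the range of the injured libraries and the other controls lay above it. The helicase eIF-4a had a log2 fold change of -0.88 ± 0.34 (adjusted p = 0.138) and eIF-3p66 one of -1.22 ± 0.53 (adjusted p = 0.173). eIF-2gamma had 0, 0 and 37.6 CPM, against 75.9, 31.4 and 45.9 CPM (log2 fold change -1.87 ± 0.80, adjusted p = 0.171), and its overlap with Su(var)3-9 leaves it uncertain. Without control replicate 1, 6 members passed at 4 hr, Elf at 3.47 (adjusted p = 0.0195), eIF5B at 1.67 (adjusted p = 0.0255), Ef1gamma at 1.48 (adjusted p = 0.0260), Ef1beta at -1.21 (adjusted p = 0.0195), eIF-5A at -1.43 (adjusted p = 0.0353) and eIF-4a at -1.10 (adjusted p = 0.0367). The share of all genes that passed in that fit is not given here, so the 6 are not read as particular to the members. Without the libraries that stood apart, where control replicate 1 alone is left, eIF5B was at 0.24 (adjusted p = 0.873), eIF-5A at 0.22 and Ef1beta at 0.32.

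Median depth differed in this comparison. The Tau-KO male libraries of 4 hr had 134970 to 340255 counts with a median of 265717. The controls had 39517 to 1198452 counts with a median of 891279, so the shallowest control had fewer counts than any library of 4 hr. The difference in mean log2 depth, injured minus control, was -0.60. Members that took a larger share of deeper libraries in w1118 tended to be lower here: across 29 members, the slope measured in 23 w1118 libraries and the log2 fold change at 4 hr in Tau-KO males had a Pearson r of -0.40 and a Spearman rho of -0.44, and across 4325 genes r was -0.63 and rho -0.64. These are correlations across genes, which share libraries and depth and are not independent replicates. Over the 12 injury comparisons r across members ran from -0.60 to 0.44, and its sign was that of the difference in mean log2 depth, injured minus control, in 5 of 12 (7 of 12 across all genes). In Tau-KO males at 2 hr r was -0.49 although mean log2 depth was higher by 0.45 in the injured libraries, and in w1118 males at 2 hr r was 0.38 with a depth difference of -0.51. With the log2 library total as a covariate, 5 members instead of 8 had an unadjusted p under 0.05 at 4 hr, with Elf at 3.85 (adjusted p = 0.0827), eIF5B at 1.07 (adjusted p = 0.262) and eIF-5A at -0.59 (adjusted p = 0.502). Neuron markers summed to 3897 to 4586 CPM at 4 hr, against 2490 to 3922 CPM in the controls, and glia markers to 2115 to 2482 CPM, against 1316 to 2353 CPM. The part of depth and of cell makeup in the members' values was not tested beyond this.

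**Figure D5:**
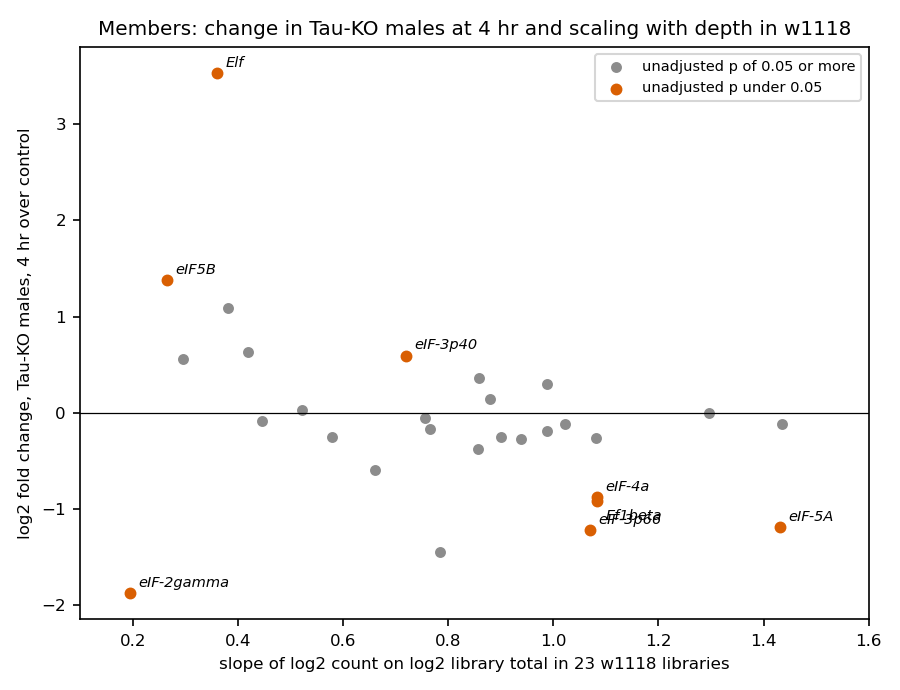
Log2 fold change of 29 members in Tau-KO males, 4 hr over control (vertical axis), against the slope of log2 count on log2 library total measured in 23 w1118 libraries (horizontal axis). Members with an unadjusted p under 0.05 are orange and named, and across the 29 points Pearson r is -0.40 and Spearman rho -0.44.

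In Tau-KO females the cap-binding protein gene eIF-4E was the member with the highest log2 fold change at an unadjusted p under 0.05. It had 82.7, 53.6 and 40.8 CPM at 1 hr, 66.4, 33.7 and 25.3 CPM at 2 hr and 48, 88.2 and 32.2 CPM at 4 hr, against 36.3, 17.1 and 23.6 CPM in the controls. The groups did not overlap at 1 hr and overlapped at 2 and 4 hr. The log2 fold change was 1.30 ± 0.56 at 1 hr (adjusted p = 0.789), 1.18 ± 0.56 at 4 hr (adjusted p = 0.976) and 1.10 ± 0.49 averaged over the 3 times (adjusted p = 0.516). Members with an unadjusted p under 0.05 numbered 3 at 1 hr (5.7% of all genes), 1 at 2 hr (5.98%), 2 at 4 hr (3.27%) and 3 for the average (8.85%). Without the libraries that stood apart eIF-4E was at 1.05 at 1 hr, 0.48 at 4 hr and 0.57 for the average. EF2 had a positive log2 fold change at 1 hr too, with 636, 478 and 466 CPM, against 476, 239 and 385 CPM in the controls (log2 fold change 0.63 ± 0.26, adjusted p = 0.789, and 0.34 without the libraries that stood apart).

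With a negative log2 fold change in Tau-KO females, eIF2B-beta of the exchange factor had 36.6, 46.7 and 49.2 CPM at 4 hr, against 106, 106 and 62.9 CPM in the controls, with no overlap (log2 fold change -1.0 ± 0.37, adjusted p = 0.976). eIF5B had 87.7, 137 and 166 CPM at 2 hr, against 182, 455 and 199 CPM, also with no overlap (log2 fold change -1.03 ± 0.37, adjusted p = 0.720). The control of 455 CPM stood apart, and leaving single libraries out moved the value at 2 hr to between -1.27 and -0.47, and that of the average of -0.75 to between -0.99 and -0.19. The value at 2 hr was -0.27 and the average -0.0050 without the libraries that stood apart. eIF5 had 8.55, 5.89 and 14.3 CPM at 1 hr, against 9.09, 54.7 and 27.5 CPM, with an overlap (log2 fold change -1.61 ± 0.75, adjusted p = 0.789, and -0.82 without the libraries that stood apart).

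In w1118 males the release factor eRF1 had an unadjusted p under 0.05 at 2 hr, at 4 hr and for the average. It had 26.6, 40.7 and 50.2 CPM at 1 hr, 53.6, 52.6 and 44.6 CPM at 2 hr and 30.3, 52.0 and 45.1 CPM at 4 hr, against 25.5, 14.6 and 27.1 CPM in the controls. The libraries of 2 and 4 hr were all above the controls, and 1 library of 1 hr lay below the highest control. The value of 50.2 CPM at 1 hr came from the library of 59781 counts. All control values of eRF1 in these males lay under its median of 31.5 CPM over the 24 w1118 libraries, and 14.6 CPM was the lowest of the 24. The log2 fold change was 0.93 ± 0.51 at 1 hr, 1.21 ± 0.49 at 2 hr and 1.03 ± 0.49 at 4 hr, and 1.06 ± 0.42 for the average, with adjusted p of 1.0 in each. Without the libraries that stood apart it was 0.89 at 2 hr and 0.93 at 4 hr (unadjusted p = 0.0207 and 0.0145), and 0.65 for the average (unadjusted p = 0.0601). eRF1 had the lowest spread between replicates of the 29 members compared, 2.33 times sampling noise, against a median of 5.49 over 4345 genes. eRF1 was also a low member, and this measure was not matched for count. In w1118 females its log2 fold change was -0.47 ± 0.38 for the average, and the difference of the response, females minus males, was -1.53 ± 0.56 (unadjusted p = 0.0126, adjusted p = 1.0). The highest eRF1 level of all, 71.3 CPM, was in the w1118 female control replicate 1, which stood apart and had the highest sum of gut genes. Without the libraries that stood apart this difference was -0.49 (unadjusted p = 0.323).

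Other members of w1118 gave few values past an unadjusted p of 0.05. In males 1 member did at 2 hr (1.1% of all 5477 genes), 2 at 4 hr (0.749%), 1 for the average (0.968%) and 0 at 1 hr (2.57%). At 2 hr and for the average this was eRF1, and at 4 hr eRF1 and eIF5. eIF5 had 2.02, 11.6 and 13.2 CPM at 4 hr, against 34.0, 26.6 and 19.0 CPM in the controls (log2 fold change -1.46 ± 0.68, adjusted p = 1.0). The library of 2.02 CPM stood apart and had the lowest sum of all members, and the control of 26.6 CPM stood apart too. In females 0 members had an unadjusted p under 0.05 at 1 hr (0.913% of all genes), at 4 hr (1.28%) and for the average (2.45%), and 1 did at 2 hr (7.08%). For the average 0.0183% of all genes (1 gene) and 0 members passed at an adjusted p under 0.05. The member of 2 hr, eIF3-S10, had 53.6, 183 and 72.4 CPM at 2 hr, against 57.6, 51.6 and 43.3 CPM in the controls (log2 fold change 1.10 ± 0.50, adjusted p = 0.692). The value rested on replicate 2, which stood apart, and without the libraries that stood apart it was 0.14.

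Between the sexes, 0 of 29 members differed in Tau-KO and 0 of 30 in w1118 at an adjusted p under 0.05. At an unadjusted p under 0.05 there was 1 in Tau-KO (2.57% of all genes) and 0 in w1118 (1.57%). The 1 member was eIF-1A, with a log2 difference, females minus males, of 0.34 ± 0.15 in Tau-KO (adjusted p = 1.0). For the response, females minus males, 7 of 29 members had an unadjusted p under 0.05 in Tau-KO (21.6% of all genes, with 0.0399% of all genes and 0 members at an adjusted p under 0.05) and 1 of 30 in w1118 (1.77%). eIF5B had the smallest p among the 7, with a difference of -1.74 ± 0.46 (adjusted p = 0.130), from a lower average in injured than control females and a higher one in males. Elf differed by -2.21 ± 0.80 (adjusted p = 0.153), eIF-5A by 1.21 ± 0.47 (adjusted p = 0.163) and Ef1beta by 0.73 ± 0.34 (adjusted p = 0.221). Without the male control of 39517 counts eIF5B, Ef1beta and Ef1gamma passed for this difference (adjusted p = 0.0439, 0.0447 and 0.0439). The share of all genes that passed in that fit is not given here, so this is not read as particular to the members. Without the libraries that stood apart the difference of eIF5B was -0.07.

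Between the strains, no member passed in control or injured flies of either sex at an adjusted p under 0.05. At an unadjusted p under 0.05, 1 member of 30 differed between Tau-KO and w1118 control females (5.69% of all 5821 genes), 0 in injured females (2.01%) or control males (3.35%), and 4 in injured males (10.2%). In control females this was eIF5B, with 182, 455 and 199 CPM in Tau-KO, against 40.9, 124 and 172 CPM in w1118 (log2 difference 1.26 ± 0.46, adjusted p = 0.855). Its highest library, of Tau-KO, and its lowest, of w1118, both stood apart, and without such libraries the difference was 0.35. In injured males eIF-5A differed by -0.81 ± 0.29 (adjusted p = 0.406), eIF3-S9 by 0.35 ± 0.14 (adjusted p = 0.418), eIF-3p40 by 0.40 ± 0.17 (adjusted p = 0.455) and Elf by 0.99 ± 0.48 (adjusted p = 0.484). These were -0.28, 0.25, 0.26 and 0.37 without the libraries that stood apart. For the response, Tau-KO minus w1118, 3 members had an unadjusted p under 0.05 in males (7.4%) and 1 in females (4.29%). In males these were Elf at 2.67 ± 1.05 (adjusted p = 0.636), eIF3-S9 at 0.62 ± 0.27 (adjusted p = 0.639) and eIF-3p40 at 0.69 ± 0.34 (adjusted p = 0.650), and in females eIF5B at -1.16 ± 0.53 (adjusted p = 0.980). With such libraries left out eIF3-S9 was at 0.24 and eIF5B at -0.42.

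Of 22 further genes of the same pathways, named without the prefixes of the rule, 17 were tested in each strain, and in no comparison did any reach an adjusted p under 0.05. The 22 include subunits of eIF3 under other names (Int6, Tango7, Trip1), repressors that act at the cap or on eIF4E (Thor, 4EHP, cup) and kinases of eIF2 (Gcn2, PEK). They also include poly(A)-binding protein (pAbp) and ribosome rescue factors (pelo, HBS1). In w1118, cup, Gcn2, PEK and pelo were not among the 17 tested, so these results do not cover them. In Tau-KO males at 4 hr, 4 of the 17 had an unadjusted p under 0.05, against 23.3% of all genes. NAT1, a relative of eIF4G, was at 1.16 ± 0.41 (adjusted p = 0.119) and crc, the fly ATF4, at 1.09 ± 0.50 (adjusted p = 0.188). Trip1 was at -1.09 ± 0.38 (adjusted p = 0.113) and Int6 at -1.34 ± 0.55 (adjusted p = 0.157). In w1118 females at 2 hr, 4 of the 17 had one, against 7.08%: Tango7 at 1.42 ± 0.54 (adjusted p = 0.594), pAbp at -0.39, crc at -1.73 and HBS1 at -1.48. Thor, the fly 4E-BP that blocks eIF4E, was at 0.71 ± 0.31 in Tau-KO males at 1 hr (adjusted p = 1.0).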

How the data were processed

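3′ mRNA tags (QuantSeq FWD, 15 ng of RNA) were measured in 48 fly brain libraries. Per the submitters' notes, the authors used CASAVA 1.8.2, aligned to dm3 with STAR 2.4 and counted with HTSeq. Their deposited file holds raw counts in whole numbers. The deposited tables of the authors' own comparisons (16, with fold changes and p-values from edgeR 3.22.3) were not used. The 5 entries that name no gene, with 23.1 to 52.8% of each library's counts, were dropped before library totals were taken. Whether counting used strand is not given in the sources used here. One column name carries a stray first letter and was read as the Tau-KO female library of 1 hr, replicate 3.

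CPM is the count per 1000000 counts in genes. Tests were glmQLFit and glmQLFTest of edgeR 4.0.16 (R 4.3.3) after TMM scaling of the genes that filterByExpr kept, with each group's mean as the only terms. Each strain was fitted by itself (24 libraries; w1118, 5477 genes; Tau-KO, 5015 genes), and both together (48 libraries, 5821 genes) for strain contrasts. Adjusted p-values are Benjamini-Hochberg over all genes tested. The average is the equal mean of 1, 2 and 4 hr. A slope is that of log2(count + 1) on log2 library total, for genes with a mean of at least 10 counts. The distance of a pair of libraries was chi-square over degrees of freedom, from genes holding 20 or more counts in both together. The workflow was tested on simulated data.

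Members described with values were the elongation and release factors, eIF4F, eIF2 and eIF-5A whatever their change, and, of the members at an unadjusted p under 0.05 in a comparison, up to 3 a direction by smallest p. Other members and the further pathway genes named with values were chosen after their values were seen. The members, gene lists and tests were chosen with earlier results of these data known. Further fits used DESeq2 size factors, DESeq2 1.42.0, no filter, a block for the replicate number, each library left out, and no library under 100000 counts. A fit with the log2 library total as a covariate and one without the 16 libraries that stood apart were added after the data were seen, as were the comparison of those 16 with the 30 others and the label checks. Positions are those of BDGP6.54.115, to which all 40 symbols were matched by symbol or RefSeq synonym. The methods give 3 biological replicates for each condition, each from a single brain. Deviations from the group means of same-numbered libraries correlated over 0.1 in every pair in 1 of 12 comparisons of injured with control libraries (w1118 males at 1 hr), in 4 of 8 between sexes (0.12 to 0.75) and in 3 of 8 between strains (0.17 to 0.75). No label says what a number shares.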

Additional observations from a re-analysis of the deposited data

How the results depend on the processing

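At an adjusted p under 0.05 the count of members called stayed at 0 under all alternatives, except in 4 comparisons that involve Tau-KO males. In Tau-KO males at 4 hr it was 4 without the filter on low counts (Elf, eIF5B, Ef1beta and eIF-5A), 2 with DESeq2 (Elf and eIF5B), 6 without libraries under 100000 counts and 0 to 6 with single libraries left out (6 without control replicate 1, 2 without 4 hr replicate 3, Elf and eIF-2gamma). For the average of Tau-KO males it was 1 without the filter (Elf), and for injured males, Tau-KO minus w1118, it was 1 without the filter (eIF-5A). For the response of Tau-KO, females minus males, it was 2 without the filter, 3 without libraries under 100000 counts and 0 to 3 with single libraries left out (3 without male control replicate 1). The shares of all genes called under these alternatives are not given here, so these counts are not read as particular to the members. Without the libraries that stood apart, a choice made after the data were seen that leaves 1 Tau-KO male control, the log2 fold change turned in Tau-KO males for eIF5B at 2 hr (-0.020) and at 4 hr for eIF-3p66 (0.39), eIF-4a (0.32), Ef1beta (0.32) and eIF-5A (0.22), and so did the difference in response, females minus males, for eIF2B-alpha (-4.89), eIF-3p66 (-0.66), Ef1beta (-0.73) and eIF-5A (-0.54). The cause was not tested. With the replicate number as a block 0 members were called in every comparison, also where same-numbered libraries deviated together: w1118 males at 1 hr (0.44, 0.66 and 0.20), 4 of 8 comparisons between sexes and 3 of 8 between strains. Depth limits the low members most, since Elf had a median of 11 counts and eRF1 19.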
